A study of Mus musculus with 2 samples.

Results

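Type 1 conventional dendritic cells were studied among the CD45+ cells of MC38 tumors, selected on raw UMIs (unique molecular identifiers, each standing for 1 captured mRNA molecule). A cell barcode was a member if it held at least 2 UMIs of Xcr1 and Clec9a together, 0 of Ccr7, 0 of Cd3d, Cd3e and Cd3g, and fewer than 10 of C1qa, C1qb and C1qc together. Barcodes with under 200 genes or over 10% of UMIs from mitochondrial genes were left out, and of the 19950 others 67 were members: 45 of 10037 in the MWA library and 22 of 9913 in the MWA plus TIGIT library.

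Male C57BL/6 mice of 6 to 8 weeks carried MC38, a mouse colon carcinoma line, in both flanks, and the right tumor was treated by microwave ablation (MWA), which destroys tissue by heat, at about 300 mm3. The left tumor was not ablated and was collected on day 8 for droplet sequencing of its CD45+ cells, the leukocytes. The MWA group received an isotype control antibody, and the MWA plus TIGIT group received an antibody that blocks TIGIT, an inhibitory receptor of T and NK cells, from day 1 and every 3 days, with 3 injections in the sample descriptions and 4 in the study's methods. Each group gave 1 library from a number of mice that is not given, so there were no replicates and no test between the groups, and the 95% intervals below cover counting error only.

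Type 1 conventional dendritic cells take up dying cells and present their antigens on MHC class I to CD8+ T cells, which is called cross-presentation. Their development depends on the transcription factors Irf8 and Batf3. They carry the chemokine receptor Xcr1, whose ligand is made by NK and T cells, and Clec9a, a receptor for the exposed actin of dead cells, and they are a source of Cxcl9 and of interleukin 12 in tumors.

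The MWA library held 66152465 UMIs in 10217 barcodes and the MWA plus TIGIT library 78751205 UMIs in 10190 barcodes. The members held 394626 and 237181 of these UMIs, with medians of 8781 and 10667.5 UMIs and of 2235 and 2506.5 genes per cell. The kept barcodes as a whole had medians of 5747 and 6838 UMIs, so the members were deeper than the typical cell in both libraries, and the MWA plus TIGIT library was the deeper one. The libraries shared 37 barcode sequences, and 0 of them belonged to members. Levels are given as CPM, UMIs of a gene per 1000000 UMIs of the population, and ratios as MWA plus TIGIT over MWA.

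Type 1 dendritic cells were rare in both tumors and rarer in the MWA plus TIGIT library. They made up 0.448% (exact binomial interval 0.327 to 0.599) of the kept barcodes in the MWA library and 0.222% (0.139 to 0.336) in the MWA plus TIGIT library, a ratio of 0.495 (0.283 to 0.842). Dendritic cells with Ccr7 and Fscn1, the mature and migratory form, numbered 28 and 27 (ratio 0.976, 0.554 to 1.72). Dendritic cells with Cd209a, a marker of the second conventional type, numbered 20 and 12 (0.608, 0.271 to 1.30). The intervals of these 3 ratios overlap, and whether they differ was not tested. The Cd209a gate also held 8 and 5 of 8 genes of the plasmacytoid list. They summed to 3283 and 1733 CPM there, against 2424 and 2201 CPM for the list of the second type. With C1q held under 3 UMIs in place of 10, the log2 ratio of the shares of type 1 dendritic cells was −0.51 (−1.52 to 0.48) against −1.01 (−1.82 to −0.25), and among barcodes of at most 5000 UMIs, with 4 members in each library, it was 0.22 (−2.20 to 2.65).

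The limits of the rule fell in different places of the libraries. No MWA member had exactly 2 UMIs of Xcr1 and Clec9a, and the 45 members with 3 or more held UMIs of a median of 14 of 18 other markers of type 1 dendritic cells. In the MWA plus TIGIT library 5 members with exactly 2 UMIs held a median of 10 of these markers and 17 members with 3 or more held 15. Just outside the rule, barcodes with 1 UMI numbered 8 and 16, with medians of 7 and 3 markers. Members with C1q of 5 to 9 UMIs numbered 6 and 0, none of the barcodes had 10 to 14, and the 6 and 4 barcodes above that held Lyz2, a macrophage and monocyte lysozyme, at 8926 and 13432 CPM. The limit on Ccr7 left out 2 barcodes in each library, with medians of 5 and 8 markers. The limit on Cd3 left out 2 and 1 barcodes with 1 UMI and 10 and 1 with more, and in 7 of those 10 the T cell receptor gene Trac had a UMI.

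The genes of the rule describe the members. Both Xcr1 and Clec9a had UMIs in 38 of 45 MWA members and in 14 of 22 MWA plus TIGIT members, Xcr1 alone in 4 and 6, and Clec9a alone in 3 and 2. Xcr1 (chr9:123852315-123862029, minus strand, GRCm38) was at 557 and 645 CPM, with medians of 4 and 4.5 UMIs per cell. Clec9a (chr6:129408862-129424763, plus strand) was at 304 and 232 CPM, with medians of 3 and 2 UMIs. C1q had a median of 2 UMIs in both libraries and a highest value of 8 and 4.

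The label fits the markers that the rule did not use. Without Xcr1 and Clec9a, the list of type 1 dendritic cells had UMIs of 18 of 18 markers in both libraries, which together reached 6591 CPM in the MWA members and 6236 CPM in the MWA plus TIGIT members. The same 18 genes summed to 3493 and 2352 CPM in Ccr7 Fscn1 dendritic cells, 1259 and 1253 CPM in Cd209a dendritic cells, 909 and 917 CPM in C1q macrophages, and 648 and 794 CPM in T cells. They were thus highest in the members in both libraries, and the most abundant of them was Irf8. Each member held UMIs of at least 5 of the 18 markers, and the medians were 14 and 12.5.

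**Figure D1:**
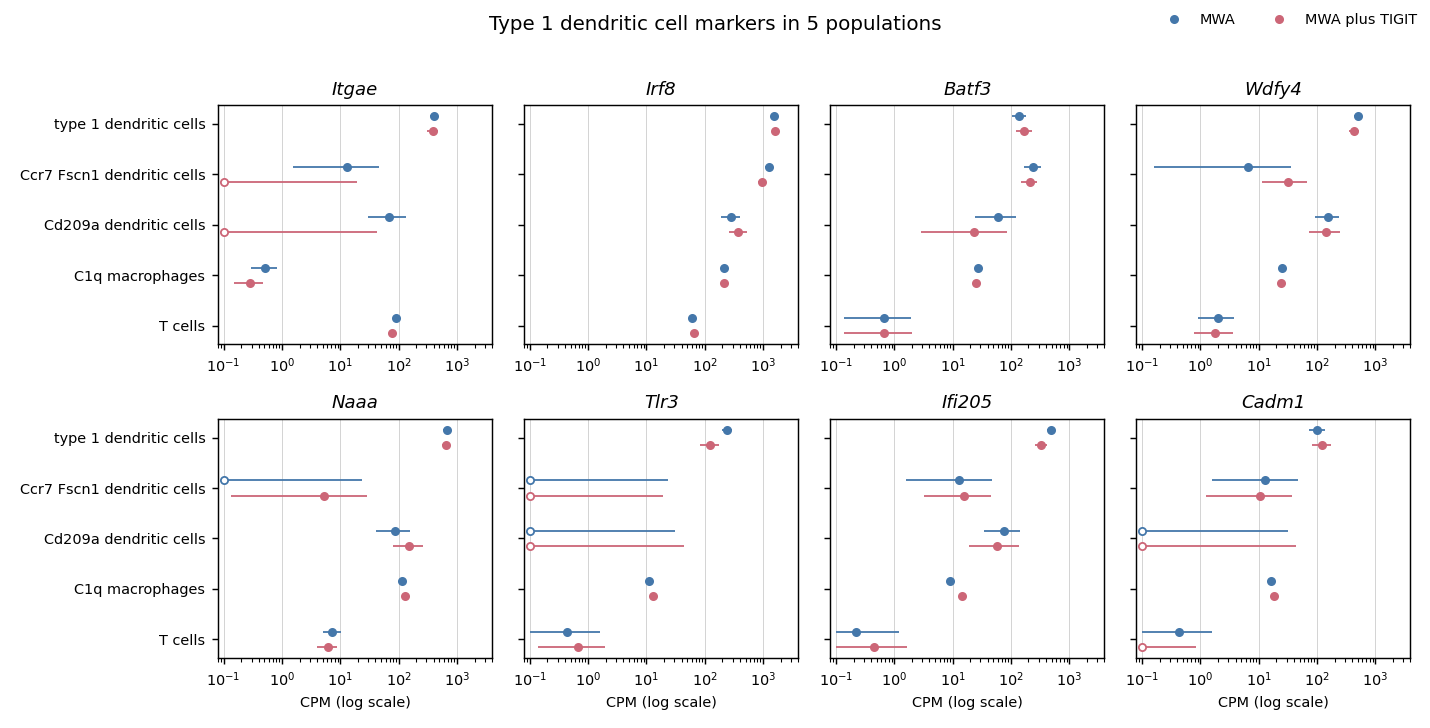
Levels in CPM (log scale) of 8 markers of type 1 dendritic cells in 5 populations of the MWA library (blue) and the MWA plus TIGIT library (red), with lines for exact Poisson 95% intervals and open circles at the left edge for 0 UMIs. In type 1 dendritic cells Itgae was at 400.4 and 384 CPM and Naaa at 661 and 658 CPM.

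Among the transcription factors, Irf8 (chr8:120736358-120756694, plus strand), required for the development of these cells, was at 1531 CPM in the MWA library and 1598 CPM in the MWA plus TIGIT library, in 44 of 45 and 19 of 22 members. Batf3 (chr1:191097847-191108945, plus strand), which maintains Irf8 expression in them, was at 139 and 169 CPM. Id2, which represses the plasmacytoid program, was at 601 and 493 CPM. The levels of these factors were thus close in the 2 libraries, and the log2 ratio of Irf8 was 0.06 (−0.13 to 0.25). Ccr7 Fscn1 dendritic cells held Irf8 at 1241 and 949 CPM and Batf3 at 238 and 209 CPM, so Batf3 did not set the members apart from mature dendritic cells, and Irf8 was higher in the members in both libraries by less than 2-fold.

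Itgae (chr11:73090583-73147446, plus strand), which encodes CD103, the integrin that binds E-cadherin, was at 400.4 and 384 CPM. It had a UMI in 97.8% and 81.8% of the members, and in 53.3% and 42.1% after each cell was thinned to 2000 UMIs, which left out 0 and 3 smaller cells. C1q macrophages, with medians of 8595 and 10531.5 UMIs, had an Itgae UMI in 0.451% and 0.285% of cells (0.0821% and 0.0488% thinned). T cells, part of which carry CD103, had one in 17.1% and 15.4% (11.3% and 11.03% thinned). Itgae was thus in most members of both libraries, and at least 2 of its UMIs were in 35 of 45 and 15 of 22.

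Wdfy4 and Naaa were found in most members of both libraries. Wdfy4, which is needed for cross-presentation of cell-associated antigen, was at 502 and 430.1 CPM, and had a UMI in 97.8% and 100% of the members. In T cells, with medians of 3049 and 3362 UMIs, Wdfy4 was found in 0.391% and 0.697% of cells, and the thinned shares were 51.1% and 42.1% in members against 0.294% and 0.493% in T cells. Naaa, an amidase of the lysosome, was at 661 and 658 CPM in the members and had 0 and 1 UMIs in Ccr7 Fscn1 dendritic cells. It thus set the members apart from mature dendritic cells, and so did Itgae, with 2 and 0 UMIs there, and Wdfy4, with 1 and 6. Flt3, the receptor whose ligand drives dendritic cell formation, was at 167 and 143 CPM. Cadm1, an adhesion molecule of these cells, was at 101 and 122 CPM, in 22 of 45 and 11 of 22 members.

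The lowest ratio of the identity list belonged to Tlr3, the endosomal sensor of double-stranded RNA. Tlr3 was at 243 CPM in the MWA library and 122 CPM in the MWA plus TIGIT library, a log2 ratio of −0.99 (−1.64 to −0.38), short of 2-fold. The log2 ratio of Tlr3 was −1.23 (−1.92 to −0.59) with at least 4 UMIs of Xcr1 and Clec9a in the rule and −0.60 (−1.43 to 0.17) without the cycling cells. Ifi205, an interferon-inducible gene of the same list, was at 487 and 329 CPM (−0.57, −0.96 to −0.18), while in C1q macrophages it was at 9.18 and 14.6 CPM. The highest ratio was that of Ly75, the uptake receptor DEC-205, at 53.2 and 75.9 CPM (0.51, −0.48 to 1.49). Over the 25 identity genes with at least 20 UMIs the median log2 ratio was −0.06 (−0.28 to 0.15), beside 0.01 over all genes tested. Cd8a, which marks the lymphoid tissue form, had 1 UMI in each library.

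The 15 genes most enriched in the members over all other kept barcodes, by the smaller ratio of the 2 libraries and among genes with at least 50 CPM in the members of both, were Gpr141b, Sept3, Xcr1, Ffar4, Plet1, Clec9a, Cldn1, Gcsam, Snx22, Clec1b, Hepacam2, Dnase1l3, Flt3, Kit and Egr3. Since the members were chosen from the same counts, these ratios describe the selection. Gpr141b, an orphan G protein-coupled receptor, was at 78.6 and 71.7 CPM, 429-fold and 431-fold above the others. Ffar4, a receptor for long-chain fatty acids, was at 231 and 169 CPM, and the tight junction gene Cldn1 at 258 and 169 CPM. Kit, the stem cell factor receptor, was at 155 and 160.2 CPM and had a UMI in 24 of 45 and 13 of 22 members. Dnase1l3, a secreted DNase, was at 177 CPM in the MWA library and 333 CPM in the MWA plus TIGIT library, a log2 ratio of 0.91 (0.43 to 1.39), which was 0.87 without the top cell of each library.

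Markers of other cells were low, with exceptions in single barcodes. Cd209a of the second dendritic cell type and Siglech of plasmacytoid dendritic cells were at 0 UMIs in both libraries. The list of the second type had UMIs of 6 and 5 of 10 genes (291 and 105 CPM, led by Klf4), and the plasmacytoid list 4 and 5 of 8 (274 and 308 CPM, led by Bst2). Of 11 markers of mature dendritic cells, without Ccr7, which the rule holds at 0, 7 and 8 were found (780.5 and 527 CPM against 6831 and 9585 CPM in Ccr7 Fscn1 dendritic cells), led by Ccl17 in the MWA library and by Cd83 in the MWA plus TIGIT library, with Il4i1 at 0. Cd209a, Siglech and Il4i1, which the rule did not use, were thus not detected in the members, while other genes of their lists were. Fscn1, which bundles actin in migrating dendritic cells, had 0 UMIs in the 45 MWA members and 1 UMI in the other library. The exact interval of the MWA share of cells with an Fscn1 UMI was 0 to 7.87%.

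Macrophage genes were also low. Without the C1q genes, which the rule limits, their list had UMIs of 9 and 8 of 9 genes and summed to 557 and 401 CPM, with Apoe highest at 373 and 278 CPM, and the same genes summed to 18226 and 21743 CPM in C1q macrophages. T cell markers summed to 17.7 and 16.9 CPM (4 and 3 of the 7 genes other than Cd3d, Cd3e and Cd3g, which the rule holds at 0, led by Trbc2 and Thy1, Lck and Cd4 at 0) and NK cell markers to 7.60 and 4.22 CPM (3 and 1 of 6 genes, led by Ncr1 and Prf1, Gzma and Klrb1c at 0). Neutrophil markers summed to 63.4 and 4.22 CPM (4 and 1 of 6, led by S100a8 and Csf3r, Cxcr2 at 0), and tumor and stroma markers to 45.6 and 33.7 CPM (1 and 2 of 6, led by Epcam, with Krt8 and Col1a1 at 0).

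Monocyte markers summed to 1652 CPM in the MWA members and 1054 CPM in the MWA plus TIGIT members (8 and 6 of 8 genes, with Vcan and Chil3 at 0 in the second). Lyz2 led them in the MWA library with 333 UMIs, of which cells 2 and 38 (numbered by falling UMIs) held 75 and 51. Plac8 led in the MWA plus TIGIT library at 510.2 CPM. B cell markers summed to 45.6 and 126 CPM, led by Ighm, and in the MWA plus TIGIT library cell 8 held 24 of 24 Igkc UMIs, 14 of 20 Ighm UMIs and 6 of 6 Cd79b UMIs, with 15 of the 18 dendritic cell markers, 8 Xcr1 and 6 Clec9a UMIs. Cell 14 of that library held 25 of 25 Cma1, 37 of 37 Tpsb2, 34 of 34 Mcpt2 and 22 of 22 Mcpt4 UMIs, proteases of mast cells, beside 13 of the 18 markers, 4 Xcr1 and 0 Clec9a UMIs. None of these barcodes was among those called doublets, but the caller marked 0 members in either library. Whether it can find doublets of so rare a cell was not tested, so this does not show that they were single cells. The part of such barcodes in the ratios below was measured by leaving them out.

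Between the libraries, 3392 genes with at least 20 UMIs were compared, and a gene was counted as changed where its ratio was at least 2-fold and the counting interval did not include 1. By this count 85 genes (2.51% of those tested) were higher and 88 (2.59%) lower in the MWA plus TIGIT library, and 1720 of the 3392 ratios were above 0. With TMM factors as the scaling the counts were 62 higher and 104 lower. Without the 4 barcodes that held most Cma1, most Igkc or at least 50 Lyz2 UMIs, an alternative chosen after seeing the data, the counts were 74 and 79. Among the 85 higher genes, 18 had at least 50% of their MWA plus TIGIT UMIs in 1 cell, and 58 were past 2-fold without the top cell of each library. Among the 88 lower genes, 6 had at least 50% of their MWA UMIs in 1 cell, and 84 were past 2-fold without the top cells. The cells were 22 for the first count and 45 for the second, and whether the counts differ was not tested. The counts do not set apart genes that also differed between the libraries in all other kept barcodes. Gm10076 was at 1566 and 696 CPM in the members and at 1490 and 680 CPM in the others. Top2a, also among the lower genes, was at 102 and 118 CPM in the others. Among the lower genes were 3 of 6 tested monocyte markers, Chil3, Ccr2 and Lyz2, and the median log2 ratio of that list was −1.10. MWA cells 2 and 38 held 75 and 51 of the 333 MWA Lyz2 UMIs, and cell 38 held 38 of 41 Chil3 UMIs. Without the 4 barcodes Ccr2 was at −0.92, short of 2-fold. The macrophage list, C1q genes included, had 5 tested genes, of which 5 had ratios below 0 and 1, Cd14, was called lower (median −0.85). The rule limits the C1q genes, so this count and median describe the selection in part. Of the 31 Cd14 UMIs of the MWA members cell 38 held 13, and without the top cells the log2 ratio of Cd14 was −1.85. In both lists 0 genes were called higher.

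**Figure D2:**
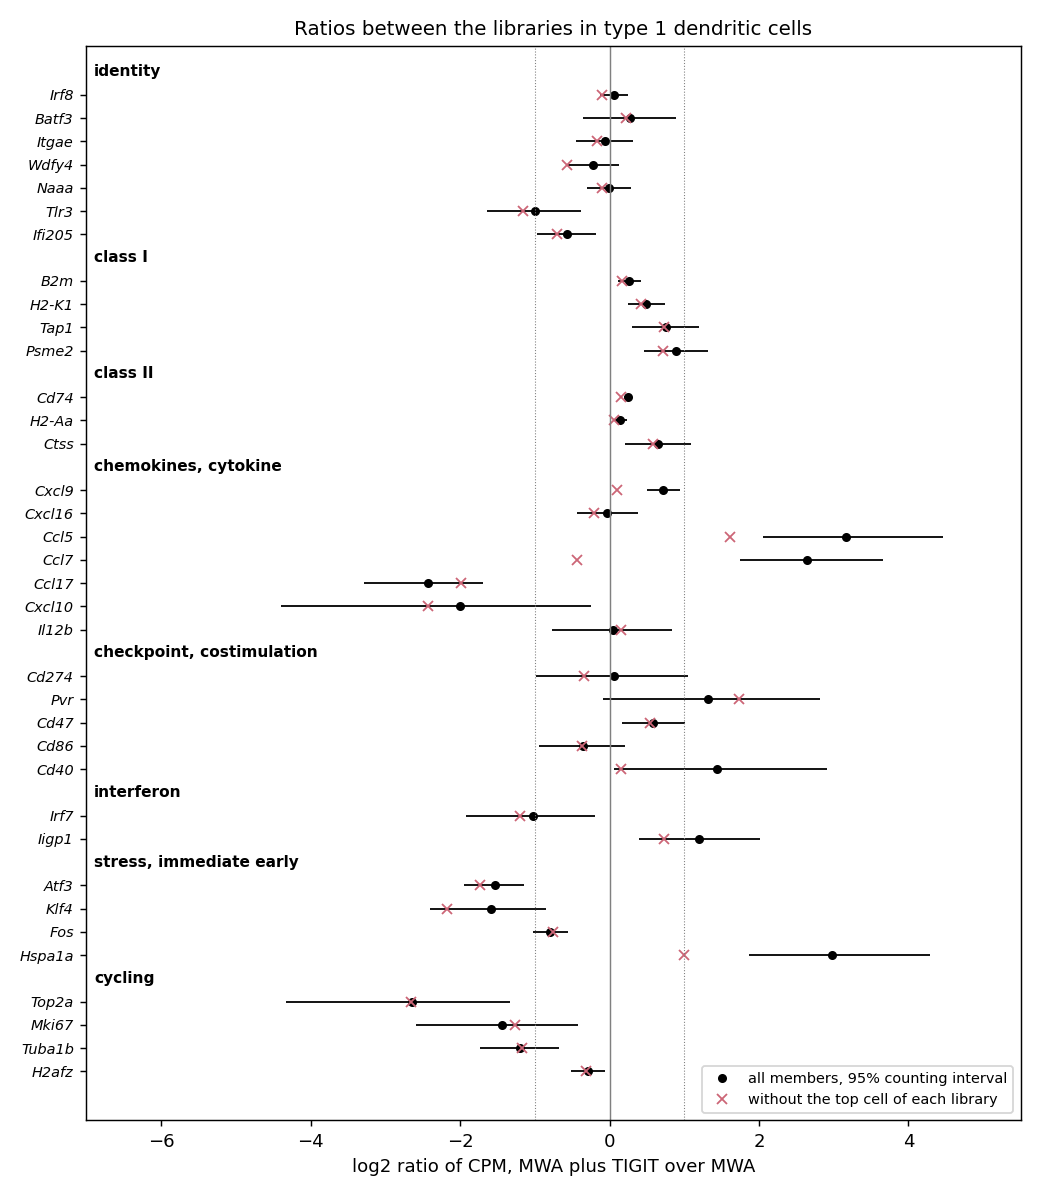
Log2 ratios of CPM, MWA plus TIGIT over MWA, of genes in type 1 dendritic cells, with 95% counting intervals (lines) and the ratio without the top cell of each library (crosses); dotted lines mark 2-fold. Cxcl9 was at 0.72 with all members and 0.10 without the top cells, and Atf3 at −1.53 and −1.74.

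Antigen presentation genes were abundant in both libraries and ratios above 0 were more common than below. In the list of class I presentation and cross-presentation, 14 of 21 tested genes had a ratio above 0, against 1720 of 3392 over all genes. The median log2 ratio was 0.20 (−0.14 to 0.35), and 0 genes were called higher and 1 lower (2.51% and 2.59% over all genes). B2m, the light chain of MHC class I, was at 1994 CPM in the MWA library and 2399 CPM in the MWA plus TIGIT library (0.27, 0.11 to 0.42). H2-K1, a class I heavy chain, was at 753 and 1058 CPM (0.49, 0.24 to 0.74). Tap1, which carries peptides into the endoplasmic reticulum, was at 220.5 and 371 CPM (0.75, 0.31 to 1.20), and Psme2, a proteasome activator subunit and the highest of the list, at 223 and 413 CPM (0.89, 0.46 to 1.32). These genes were each higher in the MWA plus TIGIT library by less than 2-fold, and also without the top cell of each library, at 0.17, 0.43, 0.73 and 0.72. With at least 4 UMIs of Xcr1 and Clec9a Psme2 was at 1.01 (0.55 to 1.47), and without the cycling cells the log2 ratio of B2m was 0.09 (−0.13 to 0.30). In C1q macrophages the log2 ratios were 0.11 for B2m, 0.23 for H2-K1, 0.13 for Tap1 and 0.16 for Psme2. The gene called lower was Cybb, a subunit of the phagosomal NADPH oxidase, with 19 and 2 UMIs (−2.51, −5.66 to −0.46), of which MWA cell 2, with 75 Lyz2 UMIs, held 10, and without the cycling cells it had 0 in the MWA plus TIGIT library, at least 0.73 lower on the log2 scale against a floor of 3 counts.

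Class II genes had 10 of 12 ratios above 0 (1720 of 3392 over all genes), with a median of 0.14 (0.06 to 0.25). In that list 0 genes were called (2.51% higher and 2.59% lower over all genes). Cd74, the invariant chain, was at 14355 and 17033 CPM (0.25, 0.19 to 0.31), and H2-Aa at 7059.9 and 7804 CPM (0.14, 0.06 to 0.23). Ctss, the protease that trims the invariant chain, had the highest ratio at 228 and 358 CPM (0.65, 0.21 to 1.10), and March1, a ligase that removes class II from the surface, the lowest at 58.3 and 37.9 CPM (−0.62, −1.91 to 0.55). The log2 ratio of March1 was −3.40 (−8.84 to −0.58) with C1q under 3 and 0.23 (−1.29 to 1.68) without the cycling cells, so its direction depended on the setting. H2-Aa was at 2429 and 2567 CPM in C1q macrophages, below the members in both libraries. The lysosome and protease list had a median of 0.11 over 18 genes, with 0 called higher and 2, Cybb and Ctsd, called lower (2.51% and 2.59% over all genes). Cst3, a cathepsin inhibitor and the most abundant gene of that list, was at 27406 and 33181 CPM (0.28, 0.23 to 0.32), and the lysosomal membrane gene Lamp1 had the highest ratio (0.83, −0.32 to 1.99). Of 9 tested genes of uptake and pattern recognition 7 had ratios below 0 (1672 of 3392 over all genes). In that list 0 were called higher and 1 lower (2.51% and 2.59% over all genes). This was Axl, a receptor for apoptotic cells, which fell from 93.8 to 33.7 CPM (−1.47, −2.79 to −0.35). The most abundant of that list, Unc93b1, which brings endosomal Toll-like receptors to their place, was at 362 and 346 CPM.

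Most Cxcl9 sat in few cells. Cxcl9 (chr5:92321347-92328079, minus strand), which attracts T cells through Cxcr3, was at 882 CPM in the MWA library and 1450.4 CPM in the MWA plus TIGIT library (0.72, 0.50 to 0.94), from 348 and 344 UMIs in 17 of 45 and 10 of 22 members. The 3 cells with most Cxcl9 held 62.1% of its UMIs in the MWA library and 86.9% in the MWA plus TIGIT library, and the highest cell held 124 and 200 UMIs. Without that top cell in each library the log2 ratio was 0.10, and it was 1.31 (1.06 to 1.56) with at least 4 UMIs of Xcr1 and Clec9a in the rule and 1.08 (0.87 to 1.29) with no limit on Cd3, an alternative chosen after seeing the data. The size of the Cxcl9 ratio thus depended on single cells and on the limits of the rule. A Cxcl9 UMI was in 37.8% and 45.5% of the members (24.4% and 31.6% thinned), against 2.42% and 3.23% of T cells (1.18% and 1.67% thinned). Summed over the members, with most UMIs from 3 cells of each library, Cxcl9 was higher than in C1q macrophages, which held 330.4 and 473 CPM.

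**Figure D3:**
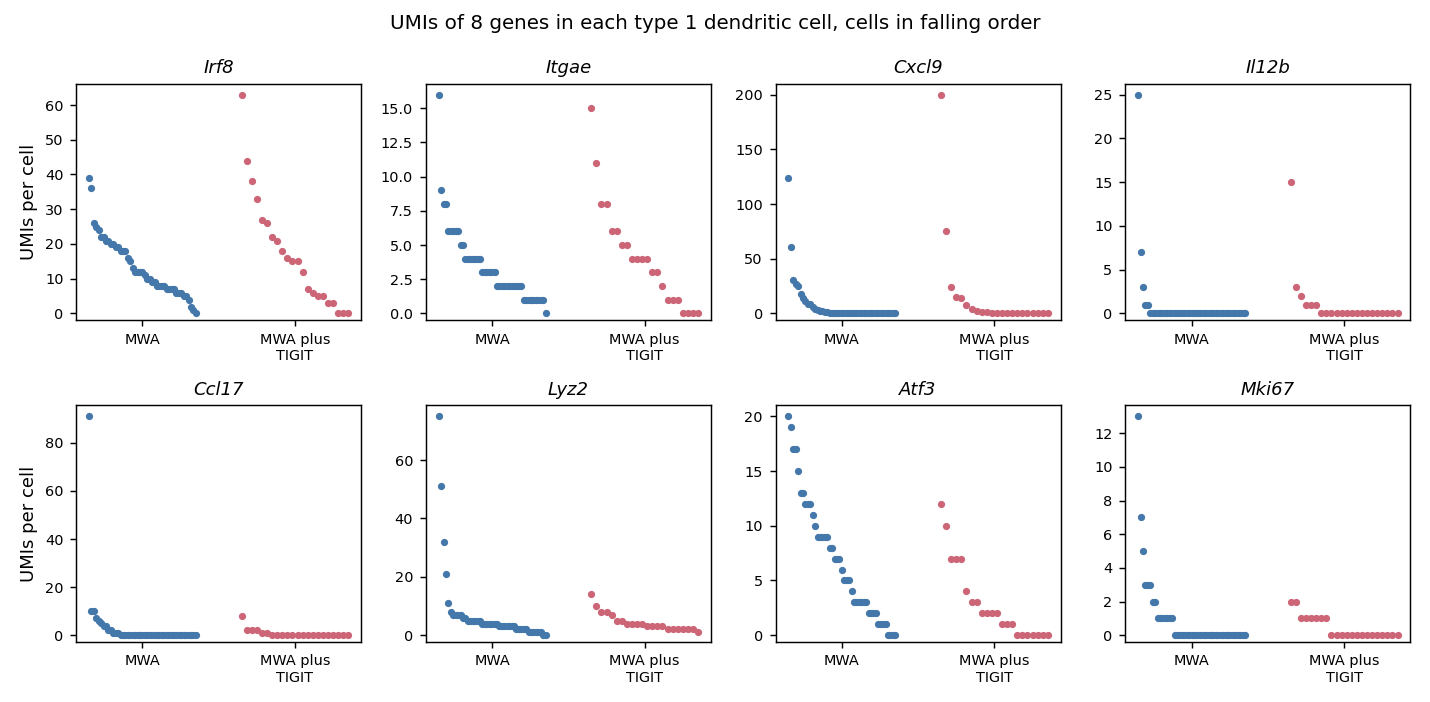
UMIs per cell (vertical axis) of 8 genes in each of the 45 MWA members (blue) and the 22 MWA plus TIGIT members (red), ordered from high to low. Irf8 and Itgae spread over most cells, while Cxcl9 reached 124 and 200 UMIs in 1 cell of each library and Ccl17 reached 91 UMIs in 1 MWA cell.

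The chemokines were divided. Of 10 tested, Cxcl9 included, 2 rose and 2 fell (2.51% and 2.59% over all genes), with a median of 0.15. Ccl5, which attracts T cells, rose from 20.3 to 181 CPM (3.16, 2.06 to 4.46), with 32 of its 43 MWA plus TIGIT UMIs in 1 cell and a log2 ratio of 1.61 without the top cells and 1.54 (−0.20 to 3.46) without the cycling cells. Ccl5 was at 12382 and 14299 CPM in Ccr7 Fscn1 dendritic cells, 4039 and 5948 CPM in T cells and 135 and 143 CPM in C1q macrophages, and with no limit on Cd3 in the rule, an alternative chosen after seeing the data, its log2 ratio in the members was −0.15. Ccl7, a monocyte attractant, rose from 32.9 to 207 CPM (2.65, 1.74 to 3.66), but 45 of 49 UMIs came from cell 14, which held the mast cell proteases, and without the top cells the log2 ratio was −0.44. Ccl2, of the same family, was at 96.3 and 143 CPM, with 30 of 34 MWA plus TIGIT UMIs in cell 14 and a log2 ratio of −1.51 without the top cells. The higher values of both monocyte attractants thus rested on the same cell.

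Ccl17, a ligand of Ccr4 made by dendritic cells, fell from 365 to 67.5 CPM (−2.44, −3.28 to −1.69). A single MWA cell held 91 of its 144 UMIs, and without the top cells the log2 ratio was −1.99, without the cycling cells −1.24 (−2.35 to −0.26), and as a mean over cells −0.37, short of 2-fold. Among cells of at most 5000 UMIs it was 1.996 (−0.06 to 4.55), so the fall of Ccl17 did not hold in each setting. Cxcl10, a further ligand of Cxcr3, fell from 50.7 to 12.6 CPM (−2.00, −4.40 to −0.25) on 20 and 3 UMIs in 7 and 2 cells, and with at least 4 UMIs of Xcr1 and Clec9a the interval included 0 (−2.53, −7.99 to 0.32). Cxcl16, the ligand of Cxcr6, was spread over 41 of 45 and 21 of 22 members at 352 and 346 CPM (−0.03, −0.44 to 0.38). Ccl4 was at 236 and 295 CPM and Ccl22 at 73.5 and 63.2 CPM. Of the chemokine receptors, Ccr2, which guides monocytes and dendritic cell precursors from the blood, fell from 159.6 to 71.7 CPM (−1.16, −2.02 to −0.36). The log2 ratio of Ccr2, also a gene of the monocyte list, was −0.68 (−1.62 to 0.18) with at least 4 UMIs of Xcr1 and Clec9a. Without the 4 barcodes, an alternative chosen after seeing the data, it was −0.92 (−1.83 to −0.09), short of 2-fold. The other receptor tested was Xcr1, a gene of the rule.

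Il12b, the p40 chain of interleukin 12, was at 93.8 and 97.0 CPM (0.05, −0.77 to 0.84), in 5 of 45 and 6 of 22 members. Cells with Cxcl9 held 35 of 37 and 19 of 23 Il12b UMIs, though 25 and 15 of the UMIs came from 1 cell of each library, and 3 and 4 cells held both genes. T cells had 0 Il12b UMIs in 1279 and 1147 cells. Ccr7 Fscn1 dendritic cells held Il12b at 1158 and 777 CPM, above the members in both libraries. Of 4 tested cytokines 0 were called (2.51% higher and 2.59% lower over all genes), with a median of 0.14. Tgfb1 was at 177 CPM in both libraries and Il1b had the highest ratio (0.44, −0.34 to 1.22).

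Ligands of TIGIT and of PD-1 were low, at 63.2 CPM or less. Pvr, the main ligand of TIGIT, had 8 UMIs in 5 of 45 MWA members and 12 UMIs in 8 of 22 MWA plus TIGIT members, which is 20.3 and 50.6 CPM (1.32, −0.09 to 2.82). A Pvr UMI was in 11.1% and 36.4% of the members (2.22% and 21.1% thinned), and in 4.93% and 6.63% of T cells (2.16% and 3.05% thinned). The interval of the ratio includes 0, while the log2 ratio of Pvr was 2.92 (0.02 to 8.40) with C1q under 3 and 0.27 (−1.53 to 1.99) without the cycling cells. Nectin2, a second ligand of TIGIT, had 2 and 0 UMIs, and Pdcd1lg2, which encodes PD-L2, 3 and 1. Cd274, which encodes PD-L1, was at 60.8 and 63.2 CPM (0.06, −0.98 to 1.05), against 244 and 292 CPM in Ccr7 Fscn1 dendritic cells. Without the cycling cells the log2 ratio of Cd274 in the members was −1.31 (−3.35 to 0.32). Cd47, a signal against phagocytosis, was the most abundant gene of the checkpoint list at 264 and 396 CPM (0.59, 0.17 to 1.01), and Havcr2, which encodes TIM-3, had the lowest ratio at 167 and 156 CPM (−0.10, −0.72 to 0.50). In that list 6 of 7 ratios were above 0 (1720 of 3392 over all genes), with a median of 0.36. In it 0 genes were called (2.51% higher and 2.59% lower over all genes).

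Genes of costimulation and maturation did not move together. Costimulatory genes had a median of 0.08 over 7 genes, with Cd83 most abundant at 279 and 295 CPM and Cd86 lowest at 210.3 and 164 CPM (−0.36, −0.94 to 0.21). Cd40, which receives help from T cells, rose from 20.3 to 54.8 CPM (1.43, 0.05 to 2.91), with 9 of 13 UMIs in 1 cell and a log2 ratio of 0.15 without the top cells and 0.66 (−0.94 to 2.40) with C1q under 3. Maturation genes had a median of −0.00 over 13 genes, with 2 called higher and 1 lower (2.51% and 2.59% over all genes). Nfkbia, the NF-κB inhibitor, was their most abundant gene at 449 and 476 CPM. Serpinb6b, a protease inhibitor of the granzyme-inhibiting serpin family, rose from 203 CPM in the MWA library to 565 CPM in the MWA plus TIGIT library (1.48, 1.07 to 1.90). It had UMIs in 57.8% and 63.6% of the members (22.2% and 52.6% thinned), against 0.716% and 0.642% of C1q macrophages (0.191% and 0.171% thinned). Without the top cells its log2 ratio was 1.28. In Ccr7 Fscn1 dendritic cells Serpinb6b was at 1048 and 975 CPM.

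Interferon-induced genes had medians near 0, at −0.02 over 14 genes of the type I list and 0.06 over 14 genes of the interferon-γ list. Irf7, which amplifies the type I response, fell from 137 to 67.5 CPM (−1.02, −1.92 to −0.19), but was at −0.46 (−1.24 to 0.27) with no limit on Cd3, chosen after seeing the data. Iigp1, an interferon-induced GTPase, rose from 60.8 to 139 CPM (1.19, 0.39 to 2.02) and was at 0.73 without the top cells. The 2 genes thus moved in opposite directions. Ifitm3 led the type I list at 431 and 422 CPM, and Parp14 had its highest ratio (0.73, −0.61 to 2.08).

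Some proliferation genes were lower in the MWA plus TIGIT members. Of 15 tested cycling genes 0 rose and 5 fell (2.51% and 2.59% over all genes). Ratios above 0 were found for 4 (1720 of 3392 over all genes), and the median was −0.29 (−1.36 to 0.34). Top2a, which untangles replicated DNA, fell from 132 to 21.1 CPM (−2.64, −4.33 to −1.33) on 52 and 5 UMIs in 13 and 5 cells, and was at −2.66 without the top cells. Mki67, a mark of cycling cells, fell from 114 to 42.2 CPM (−1.44, −2.59 to −0.43). Stmn1, Pclaf and Tuba1b also fell, by 1.39, 1.36 and 1.19 on the log2 scale. H2afz, a histone variant and the most abundant gene of the list, was at 1194 and 978 CPM (−0.29, −0.52 to −0.06), and the replication helicase gene Mcm4 had the highest ratio (0.93, −0.20 to 2.07). The histone gene Hist1h2ap fell from 750.1 to 126 CPM (−2.57, −3.16 to −2.02; −1.15, −2.60 to 0.10, without the cycling cells), but it was also lower in C1q macrophages (−1.14) and T cells (−1.04), and reads of near-identical histone copies may not be told apart. Mki67 and Top2a were at −0.09 and 0.06 in C1q macrophages and at 0.42 and 0.41 in T cells.

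Counted per cell, the difference in proliferation was within the intervals. At least 2 UMIs of a core of 8 cycling genes were in 18 of 45 MWA members (40.0%, 25.7 to 55.7) and in 8 of 22 MWA plus TIGIT members (36.4%, 17.2 to 59.3). After thinning they were in 8 of 45 (17.8%) and 1 of 19 (5.26%). The cycling cells were deeper than the others, with medians of 10043.5 against 7979 UMIs in the MWA library and 13084 against 9573.5 in the MWA plus TIGIT library. Irf8 was at 1558 CPM in cycling against 1508 CPM in other MWA members and at 1773 against 1462 CPM in the other library. Wdfy4 was at 568 against 447 CPM in the MWA library (0.35, −0.07 to 0.76) and at 241 against 577 CPM in the MWA plus TIGIT library (−1.26, −1.97 to −0.59). Cycling members thus held both identity genes. Without the cycling cells, and so with fewer cells, 69 genes in place of 85 were higher and 40 in place of 88 lower in the MWA plus TIGIT library.

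Immediate early and stress genes were found on both sides. The list had a median of −0.13 over 28 genes, with 4 called higher and 2 lower (2.51% and 2.59% over all genes). Atf3, an early stress-induced repressor, fell from 780.5 to 269.8 CPM (−1.53, −1.94 to −1.14), with 308 and 64 UMIs in 41 of 45 and 15 of 22 members, and was at −1.74 without the top cells. Klf4, a transcription factor of the same early response, fell from 228 to 75.9 CPM (−1.59, −2.41 to −0.85; −0.81, −1.84 to 0.17, with C1q under 3). Fos was at 1480 and 856 CPM (−0.79, −1.03 to −0.56), while Egr1 was at 339.6 and 557 CPM (0.71, 0.36 to 1.07), so the early genes were not all lower. In C1q macrophages Atf3 was at 641 and 539 CPM (−0.25) and Fos at 2095 and 1902 CPM (−0.14). The genes called higher were the heat shock genes Hspa1a, Hspa1b, Dnajb1 and Hsph1. Hspa1a, a stress-induced chaperone, rose from 20.3 to 160.2 CPM (2.98, 1.86 to 4.29), and cell 15 held 32 of 38 Hspa1a, 28 of 30 Hspa1b, 15 of 22 Dnajb1 and 11 of 25 Hsph1 UMIs. Without the top cells the log2 ratios were 1.00, −1.27, −0.37 and 1.08, so most of this response was in 1 cell. With at least 4 UMIs of Xcr1 and Clec9a Hspa1a was at 0.15 (−1.85 to 2.02). Hspa8, the constitutive chaperone, was at 1602 and 1733 CPM.

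For the remaining lists, the shares over all genes were 2.51% called higher and 2.59% called lower. Glycolysis and hypoxia genes had a median of 0.12 over 16 genes. Gapdh led them at 1923 and 2154 CPM, and Hk2, a hexokinase, was lowest at 109 and 54.8 CPM (−0.99, −2.01 to −0.07), and past 2-fold in other settings, at −1.85 (−3.31 to −0.60) with C1q under 3. Slc2a1, the glucose transporter GLUT1, rose from 15.2 to 63.2 CPM (2.06, 0.61 to 3.71) on 6 and 15 UMIs in 4 and 10 cells. Lipid and cholesterol genes had a median of −0.00 over 9 genes and 0 called, with Apoe most abundant, Srebf2 highest (0.73, 0.02 to 1.45) and Plin2 lowest (−0.60, −1.40 to 0.15). Transcription factors of dendritic cells had a median of −0.11 over 15 genes, with Cbfa2t3, a corepressor, highest (0.28, −0.18 to 0.73) and Klf4 called lower. Growth factor receptors and survival genes had a median of −0.09 over 10 genes and 0 called, with the survival gene Bcl2a1b at 598 and 831 CPM (0.47, 0.19 to 0.75) and Csf2ra, a chain of the GM-CSF receptor, lowest (−0.42, −1.13 to 0.26).

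Across the genome, among genes that reached 50 CPM in the MWA or the MWA plus TIGIT members, the 10 with the highest ratios were Cma1, Ifitm1, Tpsb2, Mcpt2, Ctla2a, Mcpt4, Ccl5, Hspa1a, Ccl7 and Ass1. In the MWA plus TIGIT library 5 of these came from cell 14 alone: Cma1 with 1 and 25 UMIs (5.38, 2.77 to 10.74), Ctla2a with 3 and 27, and Tpsb2, Mcpt2 and Mcpt4 with 0 in the MWA library, which were at least 20.5-fold, 18.9-fold and 12.2-fold higher against a floor of 3 counts. Ifitm1, an interferon-induced membrane protein, had 5 and 104 UMIs (5.11, 3.84 to 6.77), and cell 13 held 103 of the 104. Ass1, which joins citrulline and aspartate in the synthesis of arginine, rose from 12.7 to 75.9 CPM in 4 and 6 cells (2.58, 1.10 to 4.37) and was at 2.15 without the top cells. This end of the ranking was thus mostly made of single cells.

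The 10 with the lowest ratios were Hist1h1b, Fam71a, Ell2, Chil3, Top2a, Lrif1, Hist1h2ap, Ccl17, Rfx7 and Rnd3, and most were spread over 10 or more MWA cells. Hist1h1b, a linker histone of S phase, had 62 UMIs in 10 MWA cells and 1 UMI in the other library (−5.22, −10.55 to −2.69). Ell2, a transcription elongation factor, had 25 and 1 UMIs in 16 and 1 cells (−3.91, −9.27 to −1.30), and Lrif1, which binds nuclear receptors, 20 and 2 UMIs in 16 and 2 cells. Rfx7, a transcription factor, had 27 and 3 UMIs in 19 and 2 cells (−2.44, −4.80 to −0.74). Rnd3, a small GTPase, had 26 UMIs in 14 MWA cells and 0 in the other library, at least 2.38 lower on the log2 scale against a floor of 3 counts. Chil3 had 41 and 0 UMIs, and 38 of the 41 were in MWA cell 38, which held 51 Lyz2 UMIs.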

How the data were processed

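The authors sequenced 3′ droplet libraries and deposited raw UMI counts per barcode for 32285 genes, aligned to mm10 (GRCm38) by Cell Ranger. The matrix header names version 4.0.0 and the submitters' processing notes 6.1.1. Cell type assignments by the authors were not used here. The limit of 200 genes removed 2 MWA and 12 MWA plus TIGIT barcodes, and the limit of 10% mitochondrial UMIs 178 and 265, which left 10037 and 9913. UMIs were summed per library over the members. Shares have exact Clopper-Pearson intervals, sums exact Poisson intervals, ratios exact conditional binomial intervals, and medians of lists binomial order-statistic intervals, all at 95% and for counting error only. A library at 0 was set to a floor of 3 counts, and ratios were given from 20 UMIs over both libraries. T cells (at least 2 Cd3 and 0 C1q UMIs), C1q macrophages (at least 10 C1q UMIs) and the other dendritic cells were gated on UMIs as well. Doublets were called from simulated sums of 2 barcodes on 20 principal components, at 0.8% per 1000 barcodes. This marked 806 (8.03%) and 786 (7.93%) barcodes, 0 of them members, and none was removed.

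Genes were named by a rule: the genes of the gate and Itgae, chemokines and checkpoint ligands that the study names for myeloid cells, of each list the most abundant gene and the highest and lowest ratio, members of the lists of identity, class I, chemokines, cytokines and checkpoints by CPM, the 10 highest and 10 lowest ratios from 50 CPM, and the 15 most enriched genes from 50 CPM in both libraries. Atf3, Fos, Egr1, Hspa1b, Dnajb1, Hsph1, Stmn1, Pclaf, Tuba1b, H2-Aa, Ctsd, Trac, Igkc, Cd79b and Gm10076 were named after their values had been seen. The members and lists were chosen with earlier results of these data known. Some items of the lists are not reported here. Coordinates are from GENCODE M21, of the same build, which held 32235 of the gene identifiers. Python 3.11.15 with numpy 2.4.6, scipy 1.17.1, pandas 2.3.3, scikit-learn 1.9.0 and matplotlib 3.10.9 was used, and R 4.3.3 with edgeR 4.0.16 for TMM factors as an alternative scaling, which moved log2 ratios by −0.0662.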

Additional observations from a re-analysis of the deposited data

Results flagged for a closer look

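For some named genes the log2 ratio of type 1 dendritic cells (MWA plus TIGIT over MWA) and that of another population of the same libraries had opposite signs, with both counting intervals clear of 0. None of these differences was tested, and each rests on 1 library per group. Against C1q macrophages they were Cxcl10 (−2.00 against 0.17), Ccl7 (2.65 against −0.28), Tlr3 (−0.99 against 0.23), Cybb (−2.51 against 0.15), Ccl17 (−2.44 against 1.04, on 58 and 164 UMIs there), Serpinb6b (1.48 against −1.04, on 54 and 36 UMIs there), Irf7 (−1.02 against 0.08), Hk2 (−0.99 against 0.20) and Chil3 (−3.04, at the floor of 3 counts, against 0.90). In the members 1 barcode held 45 of 49 Ccl7 UMIs of the MWA plus TIGIT library, and 1 held 38 of 41 Chil3 UMIs of the MWA library.

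Against Ccr7 Fscn1 dendritic cells they were Cst3 (0.28 against −0.19), Ccl17 (−2.44 against 1.34), H2afz (−0.29 against 0.78) and Hspa1a (2.98, with 32 of 38 UMIs in 1 member, against −3.30, on 24 and 0 UMIs there). Against Cd209a dendritic cells, a gate that also held plasmacytoid genes, they were B2m (0.27 against −0.49), Cybb (−2.51 against 1.13, on 17 and 27 UMIs there) and Ccr2 (−1.16 against 1.25).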

How the results depend on the processing

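With 1 library per group no library could be left out, and no paired analysis was possible because no result came from a test. Of the log2 ratios of named genes under the alternatives, 702 stayed, 77 moved and 5 reversed. A ratio counted as stayed could still turn its sign or lose its call. March1 turned to 0.23 without the cycling cells, and Ccr2 was short of 2-fold at −0.68 with at least 4 UMIs of Xcr1 and Clec9a. Ccl2 turned to −1.51 without the top cells and counted as moved. Leaving out doublets could move no gene ratio, list median, count of changed genes or number of members, since 0 members were called. Its values are among those that stayed. Of the medians of lists 182 stayed and 13 moved, and a median that turned its sign could count as stayed. Among these were costimulation at −0.19 with at least 4 UMIs of Xcr1 and Clec9a, lysosome at −0.04 without the cycling cells and chemokines at −0.06 without 4 barcodes. Of the counts of changed genes 20 stayed and 8 moved, and of the numbers of members 13 stayed and 3 moved. Of the percentages of cells in a state 85 stayed and 5 moved, and of the log2 ratios of the shares 7 kept their sign and 1 reversed. The cause was not tested where the alternative itself does not show it.

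With C1q under 3 UMIs there were 23 MWA members (0.229%), 48 lower genes and a log2 ratio of Hspa1a of −0.0762. At most 5000 UMIs left 4 members in each library (percent of kept barcodes, MWA: 0.0910; percent of kept barcodes, MWA plus TIGIT: 0.106), a log2 ratio of the shares of 0.22, 11 higher and 32 lower genes, medians of 0.63 (class II), 0.43 (lysosome) and −0.42 (all genes tested), and a log2 ratio of Ccl17 of 1.996; here states had too few cells, and lists with under 5 genes gave no median. A minimum of 50 UMIs gave 17 higher and 29 lower genes, a minimum of 1 UMI 182 higher genes and a fold of 1.5 gave 129 higher genes, as more or fewer genes could pass. Without cycling cells there were 40 lower genes, the median of costimulation was −0.44, that of immediate early and heat shock −0.47, the median of growth factor receptors and survival 0.0713 and the median of all genes tested 0.0817. The mean over cells gave medians of 0.31 (class II), 0.57 (maturation) and −0.00255 (all genes tested), and TMM factors −0.0535 (all genes tested). Cells thinned to 2000 UMIs had 2 UMIs of the cycling core in 17.8% and 5.26% and of Itgae in 11.1% and 15.8%, since thinning removes UMIs, and at least 1 Itgae UMI was in 97.8% of MWA members. Without the top cell Ccl7 was at −0.44.

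The alternatives chosen after seeing the data gave, with Cd3 not limited, a class II median of 0.27 and Ccl5 at −0.15, and, without 4 barcodes, a lysosome median of 0.26 and Ccl7 at −0.89.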
